A study of Mus musculus with 3 samples.

Results

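The genes described here are 6 ligands and 3 receptors of the epidermal growth factor (EGF) receptor family: the ligands Ereg, Areg, Hbegf, Tgfa, Btc and Epgn and the receptors Egfr, Erbb2 and Erbb3. They were taken by symbol, and all 9 were found among the 31053 genes of each count matrix. The series holds 3 single-cell RNA-seq libraries of mouse calvaria, the roof of the skull, from C57BL/6 mice 8 weeks old: tumour-free control calvaria, and calvaria of 2 groups that had received HNM007 cells, a mouse line of head and neck squamous cell carcinoma, 1 week earlier. In the scratch-negative group the cells were placed on intact bone, which the submitters call the pre-invasive stage. In the scratch-positive group the bone surface had first been scratched with a needle, which strips off the periosteum, and the stage is called invasive. The tumour was cut away before sampling in both groups, so the tumour cells measured are those that were left on or in the bone. Live CD45+ and CD45- cells were mixed in equal parts, and each group is 1 library; how many mice it holds is not given in the sources used here. No library of scratched bone without tumour was analysed here, so the scratch, the loss of periosteum and the invasive stage cannot be told apart.

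EGF family ligands are made as membrane-anchored precursors and are released by proteases such as ADAM17. Areg (amphiregulin), Tgfa (transforming growth factor alpha) and Epgn (epigen) bind the receptor encoded by Egfr, and Ereg (epiregulin), Hbegf (heparin-binding EGF-like growth factor) and Btc (betacellulin) bind both this receptor and ERBB4. ERBB2 has no known ligand of its own and acts as the partner of the other receptors, and ERBB3 binds neuregulins and has little kinase activity. In bone, EGF receptor signalling acts on osteoblast-lineage cells, and squamous carcinomas commonly make several of these ligands.

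In the annotation of build GRCm38 (GENCODE vM21), Epgn (chr5:91027464-91035215, plus strand), Ereg (chr5:91074622-91093646, plus strand), Areg (chr5:91139599-91148432, plus strand) and Btc (chr5:91357261-91402994, minus strand) lie next to one another on chromosome 5. The stretch from the start of Epgn to the end of Btc is 375.5 kb long, and its 4 protein-coding genes are these 4. Tgfa lies at chr6:86195223-86275719 (plus strand), Egfr at chr11:16752203-16918158 (plus strand), Erbb2 at chr11:98412470-98437716 (plus strand) and Erbb3 at chr10:128567523-128589652 (minus strand). An antisense gene, Gm19610, overlaps the start of Ereg, and whether the counting used strand is not given in the sources used here.

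Promoter sequences from RefSeq (GRCm38.p6) were available for 6 of the 9 genes, namely Areg, Tgfa, Btc, Epgn, Egfr and Erbb2. The bases before the annotated start are shown for 3 ligand genes of the shared locus and for Egfr. The levels of Areg and Egfr were highest in different cell classes. Each runs 5′ to 3′ on the gene's own strand and ends at the base before the GENCODE start. Capitals mark matches to 4 motifs searched on both strands: TGACGTCA (cAMP response element), TGANTCA (AP-1), GGGCGG (GC box, CCGCCC on the other strand) and TATAAA.
Areg, chr5:91139349-91139598, plus strand: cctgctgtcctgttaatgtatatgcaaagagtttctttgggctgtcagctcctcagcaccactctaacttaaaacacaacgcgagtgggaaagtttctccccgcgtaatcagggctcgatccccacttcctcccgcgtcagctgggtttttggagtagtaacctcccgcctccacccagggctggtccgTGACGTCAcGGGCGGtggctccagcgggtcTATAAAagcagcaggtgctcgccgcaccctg
Epgn, chr5:91027267-91027463, plus strand: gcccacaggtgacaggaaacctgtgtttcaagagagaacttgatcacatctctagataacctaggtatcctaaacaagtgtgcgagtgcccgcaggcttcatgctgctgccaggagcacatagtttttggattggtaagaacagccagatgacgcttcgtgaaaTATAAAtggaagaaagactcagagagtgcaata
Btc, chr5:91402995-91403244, minus strand: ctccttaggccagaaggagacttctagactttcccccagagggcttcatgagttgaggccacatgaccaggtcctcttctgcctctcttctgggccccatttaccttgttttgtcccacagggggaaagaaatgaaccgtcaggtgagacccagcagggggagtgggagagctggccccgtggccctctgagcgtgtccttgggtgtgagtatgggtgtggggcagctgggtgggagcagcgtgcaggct
Egfr, chr11:16751953-16752202, plus strand: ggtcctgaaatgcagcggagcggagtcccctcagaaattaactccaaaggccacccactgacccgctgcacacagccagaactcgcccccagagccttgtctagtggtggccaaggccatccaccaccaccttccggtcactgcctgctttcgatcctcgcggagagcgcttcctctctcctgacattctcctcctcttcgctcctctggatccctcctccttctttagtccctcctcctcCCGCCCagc
The Areg window of 250 bases held the cAMP response element, a GC box and TATAAA, and the Epgn window of 197 bases held TATAAA alone. The Egfr window held a GC box, and the Btc window held none of the 4 motifs. Of 32851 promoter windows of 250 bases, TGACGTCA was found in 1.55%, TGANTCA in 6.75%, GGGCGG in 32.7% and TATAAA in 12.4%. These are matches of letters and were not linked to the levels below.

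The libraries held 7490 (control), 8517 (scratch-negative) and 9504 (scratch-positive) barcodes with 100089008, 167623741 and 395654008 UMIs (unique molecular identifiers, each counting 1 captured transcript), and 6128, 7571 and 8380 cells were kept, with medians of 8876, 11238 and 36351 UMIs per cell. Between 16 and 30 barcodes were shared by each pair of libraries. Cells fell into 30 clusters, named from marker genes without use of the 9 genes or their pathway. The tumour class (no cell in the control library, 199 scratch-negative and 3754 scratch-positive cells) had Krt14, Krt8, Krt18, Krt17 and Perp in at least 20% of cells, 5 of 12 epithelial markers, and Krt5 was at 0 UMIs in its scratch-negative cells. Fibroblast/periosteal cells (48, 543 and 416) had all 12 markers of their list, monocyte/macrophages (392, 682 and 780) had 9 to 12 of 12, and osteoclasts (22, 81 and 868) 8 or 9 of 10. Osteoblast/reticular cells numbered 78, 165 and 29 and neutrophils 4466, 4485 and 1556. RNA of other cells was present in every class. The 12 neutrophil markers summed to 485031 to 525172 counts-per-million (CPM, UMIs of a gene scaled to the UMIs of the class) in neutrophils, to 260856, 297855 and 141661 CPM in the macrophages of the 3 libraries, to 24101.5 CPM in scratch-negative tumour cells and to 1070.17 CPM in scratch-positive ones, and the tumour keratin Krt8 was at 27.3 CPM in scratch-positive neutrophils.

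Levels are CPM of UMIs summed over the cells of a class in 1 library, and shares of cells are given after thinning each cell to 5000 UMIs unless stated otherwise. A gene is called higher or lower where 2 libraries differed at least 1.5-fold and the 95% interval of the ratio, given in square brackets, lay wholly on that side of 1, with at least 10 UMIs in the pair. Intervals cover counting error only. With 1 library per group there is no replicate check and no test, so every difference is one between libraries and not shown for the conditions. In such sums fewer expressing cells and less RNA per cell cannot be told apart. The scratch-negative library enters both comparisons, against control and against scratch-positive, so the 2 are not independent.

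In tumour cells Ereg, Areg and Hbegf were abundant in both tumour-bearing libraries, and none of the 9 genes was called higher or lower between them. Ereg was at 111 CPM in the scratch-negative library (1525 UMIs) and 101.3 CPM in the scratch-positive library (25130 UMIs), a ratio of 0.913 [0.867 to 0.962]. Areg was at 318 CPM (4371 UMIs) and 456 CPM (113244 UMIs), a ratio of 1.43 [1.39 to 1.48], below the 1.5-fold limit. Hbegf was at 211 CPM (2902 UMIs) and 181 CPM (45029 UMIs), a ratio of 0.859 [0.828 to 0.893]. Among all 14911 genes tested in tumour cells, 3.23% were called higher and 12.1% lower in the scratch-positive library. Krt8 was at 928 and 1340 CPM in the same cells. With each cell given equal weight Areg passed the limit (log2 ratio 0.68), and so it did in tumour cells without a UMI of the leukocyte gene Ptprc (0.59).

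The other ligands were scarce in tumour cells. Tgfa was at 7.35 CPM (101 UMIs) and 6.41 CPM (1590 UMIs), a ratio of 0.872 [0.713 to 1.08], and Btc at 2.84 CPM (39 UMIs) and 2.95 CPM (733 UMIs). Epgn had 1 UMI in the scratch-negative and 41 UMIs in the scratch-positive tumour cells, too few to set the libraries apart. Most Tgfa and Btc UMIs of each tumour-bearing library came from the tumour class, and no other class held more than 10 UMIs of either gene in a library.

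Single tumour cells varied widely. Areg had a median of 103 CPM per cell in the scratch-negative and 214 in the scratch-positive library, and the top 10% of cells held 43.4% and 39.8% of its UMIs. Its UMIs were missing from 36 of 199 and 372 of 3754 cells. For Ereg the cell medians were 38.4 and 51.8 CPM and the top 10% of cells held 48.6% and 39.0%. Hbegf was spread more evenly, with medians of 144 and 126 CPM and 31.5% and 29.98% in the top 10%. At 5000 UMIs per cell, Areg was found in 53.2% of 188 scratch-negative and 61.4% of 3644 scratch-positive cells, Ereg in 25.5% and 31.0% and Hbegf in 53.2% and 49.0%. With all UMIs, Areg and Hbegf were found together in 77.4% and 85.5% of tumour cells, and Ereg and Areg in 65.8% and 77.3%. At 5000 UMIs per cell these pairs were found together in 31.9% and 32.9% and in 15.96% and 21.76% of tumour cells, so that the shares depend on depth.

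The tumour clusters differed in their ligand levels. In the scratch-positive library Ereg was at 144 CPM in cluster 24 (1555 cells, with Clu and Krt17 among its leading genes), 111 CPM in cluster 23 (240 cells, led by Gbp4, Iigp1 and Igtp), 71.6 CPM in cluster 28 (879 cells, led by Siah1b, H1f0 and Sox2) and 66.3 CPM in cluster 26 (1080 cells, led by Phlda2, Qrfp and Sapcd2). Areg ran from 386 CPM in cluster 23 to 469 CPM in cluster 24 there, a narrower range than that of Ereg. Hbegf was at 214 CPM in cluster 24 and 149 to 171 CPM in the other 3. In the scratch-negative library cluster 24, here 33 cells, had more of each ligand than cluster 23 (140 cells): 201 against 96.9 CPM for Ereg, 598 against 260 CPM for Areg and 340 against 194 CPM for Hbegf. Clusters share their library, and no test was made between them.

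**Figure D1:**
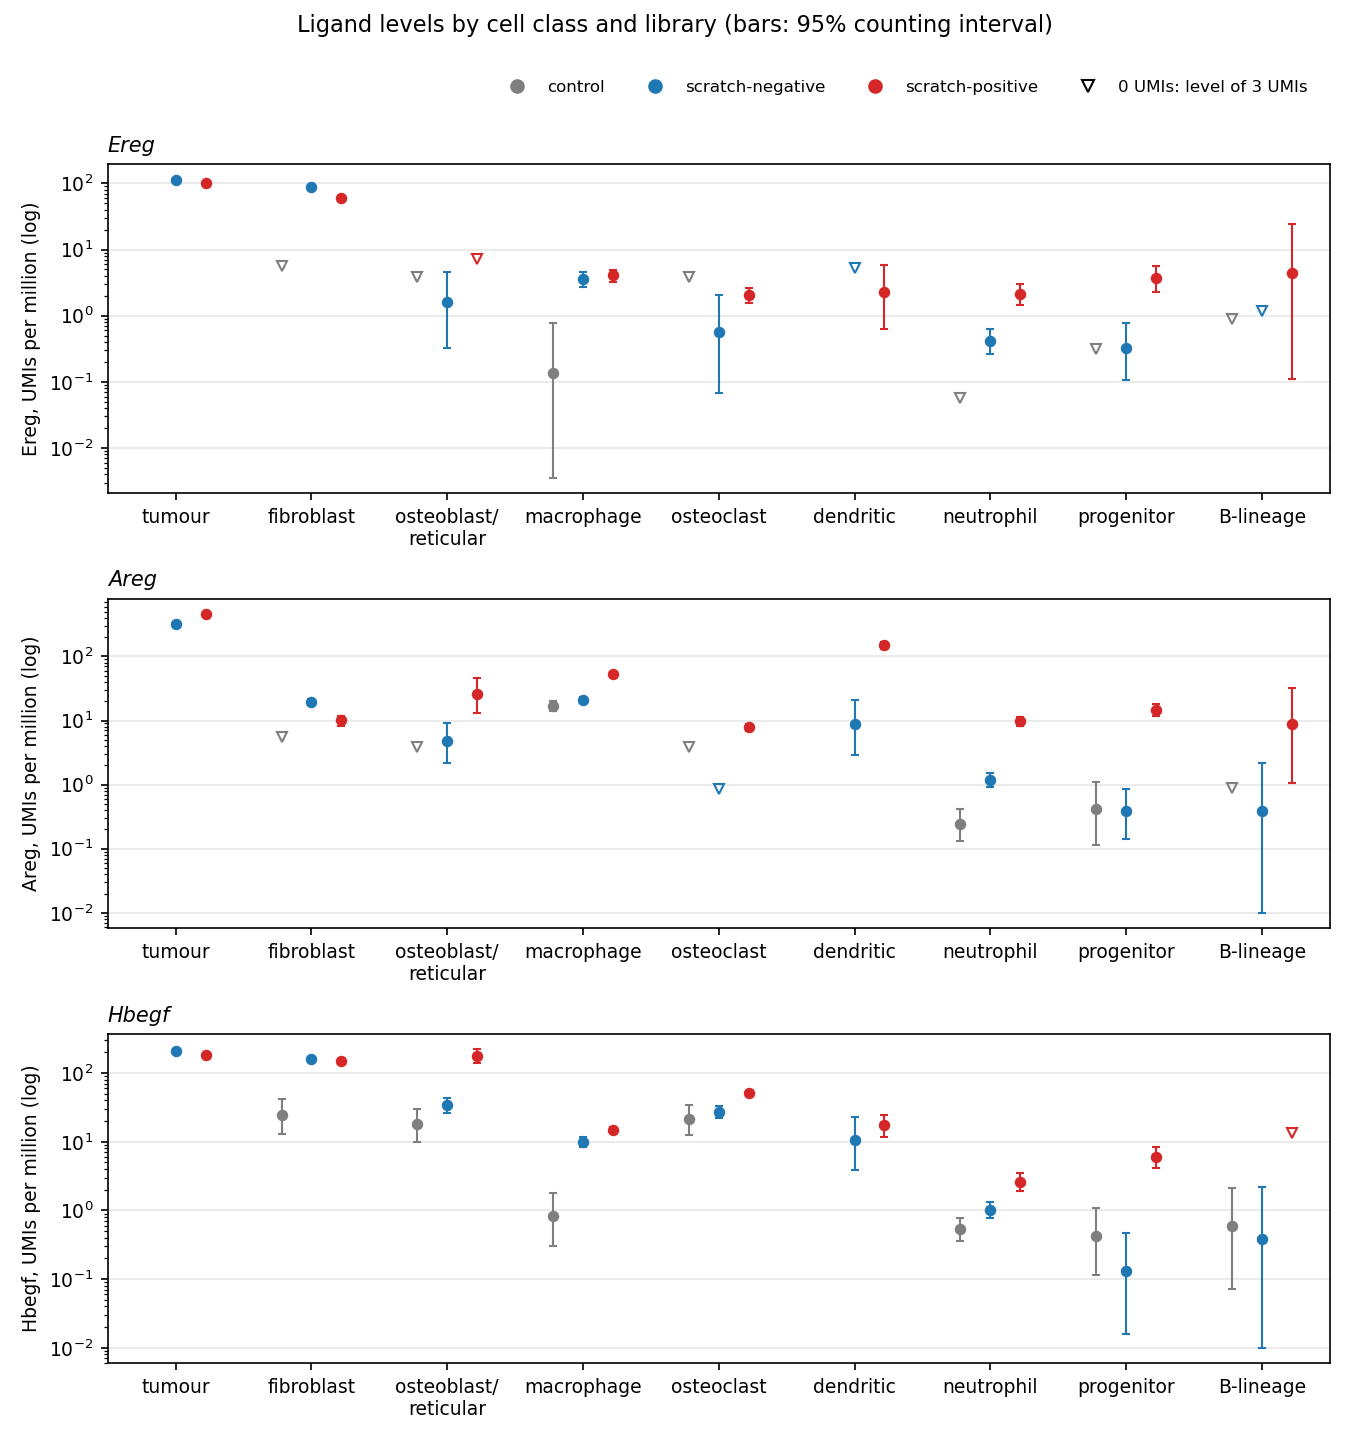
Levels of Ereg, Areg and Hbegf (CPM of the class, log axis) in each cell class with at least 20 cells, by library; bars are 95% counting intervals and open triangles mark the level of 3 UMIs where none was seen. Ereg stands at 60.1 to 111 CPM in tumour cells and fibroblasts of the tumour-bearing libraries and at 4.43 CPM or less in the other named classes where it was seen.

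In fibroblast/periosteal cells Ereg, Areg and Hbegf were all called higher in the scratch-negative than in the control library, 3 of the 5 members tested, while none was called lower. Among all 13328 genes tested there, 8.3% were called higher and 16.3% lower. Ereg had 0 UMIs in 48 control cells, 1500 UMIs (87.8 CPM) in the scratch-negative and 732 UMIs (60.1 CPM) in the scratch-positive library. The scratch-negative level was at least 15.6-fold higher than the level of 3 UMIs in the control cells. Areg had 0, 338 (19.8 CPM) and 122 UMIs (10.0 CPM), at least 3.52-fold higher in scratch-negative than in control cells. Hbegf had 13 UMIs (24.4 CPM), 2755 UMIs (161 CPM) and 1800 UMIs (148 CPM), a ratio of 6.61 [3.86 to 12.4] against control. The control cells were thus the low ones for all 3 ligands, and their number is small: 0 of 42 thinned cells held Ereg, which allows a share of up to 8.41% by the exact binomial interval.

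Between the tumour-bearing libraries the fibroblast ligands differed less. Ereg was lower in the scratch-positive library by a ratio of 0.684 [0.626 to 0.748], which is 1.46-fold and so not called. It was called lower with a minimum of 1000 genes (log2 ratio -0.67), with scaling by the median ratio (-0.65) and with the UMIs that go with Krt8 subtracted (-0.61). Areg was called lower, with a ratio of 0.506 [0.408 to 0.624], and Hbegf differed by 0.916 [0.863 to 0.973]. The Areg call rests on 1 cell: a single scratch-negative fibroblast held 160 of the 338 UMIs, and without the cell of most UMIs in each library the log2 ratio was -0.18 and no call was made. Among all 13981 genes tested, 11.2% were called higher and 16.1% lower, and of 7 members tested 2 were lower, Areg and Egfr. Shares of cells gave another order for Areg, with UMIs in 1.71% of 526 scratch-negative and 3.70% of 405 scratch-positive fibroblasts. The scratch-positive Areg level was not above the one that goes with Krt8, as set out below.

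Ereg was concentrated in a minority of fibroblasts. The top 10% of cells held 88.5% of its UMIs in the scratch-negative and 93.9% in the scratch-positive library, and 10.6% and 9.14% of thinned cells had a UMI. Hbegf was broader: 59.4% and 40% of its UMIs were in the top 10% of cells, and 30.6% and 37.8% of thinned cells had one, against 4.76% of 42 control cells. B-lineage cells, taken as a class expected to lack these genes, held 0 UMIs of Ereg in 245 control and 158 scratch-negative cells and 1 UMI in 29 scratch-positive cells at full depth.

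The 2 fibroblast clusters differed in all 3 ligands. Cluster 12 (48 control, 191 scratch-negative and 110 scratch-positive cells) was led by Clec3b, Fmod and Angptl1 and is the one cluster present in the control library. There Ereg was at 0, 8.66 and 13.7 CPM, Hbegf at 24.4, 45.2 and 69.0 CPM and Areg at 0, 2.25 and 7.34 CPM. Cluster 25 (no control cell, 352 and 306 cells) was led by Crabp1, Gzmd and Tagln and also by Lrrc15, a marker of activated fibroblasts. Its cells had Ereg at 105 and 69.4 CPM, Areg at 23.7 and 10.5 CPM and Hbegf at 187 and 164 CPM. The control fibroblasts were thus all in cluster 12 and most of the others in cluster 25. Within cluster 12 alone Ereg and Hbegf were still called higher in the scratch-negative than in the control library, but by less than in the whole class. Ereg was at 8.66 CPM there, against 5.63 CPM for 3 UMIs in the control cells, and the log2 ratio of Hbegf was 0.88 in place of 2.72. Areg had 7 scratch-negative and 0 control UMIs in cluster 12, too few to be tested. Between the tumour-bearing libraries Hbegf and Areg were called higher in scratch-positive cells of cluster 12 (log2 ratios 0.61 and 1.63), Areg against 7 scratch-negative UMIs. In the class as a whole Hbegf was not called, and Areg was called lower, a call that rests on a single cell. In cluster 25 Ereg and Areg were called lower (-0.60 and -1.16).

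Krt8, a keratin of the tumour cells, was used as a rough gauge of free tumour RNA. Its UMIs were not seen only beside tumour cells, since macrophages of the tumour-free control library also held some. In scratch-negative erythroid cells Krt8 was at 22.9 CPM (254 UMIs), against 1.67 CPM in macrophages of that library. The source of this Krt8 was not tested. All levels set against Krt8, and all subtractions of its share, carry this limit. In fibroblasts Krt8 was at 0, 5.91 and 41.6 CPM and the 12 epithelial markers summed to 3.75, 14.3 and 114 CPM. At the ligand-to-Krt8 ratio of the scratch-positive tumour cells, that much Krt8 would come with 3.14 CPM of Ereg, 5.63 CPM of Hbegf and 14.2 CPM of Areg. The measured Ereg (60.1 CPM) and Hbegf (148 CPM) were 19.1 and 26.2 times these values, and the measured Areg (10.0 CPM) was 0.707 times its value. With that share subtracted no Areg was left in scratch-positive fibroblasts. Its log2 ratio between the tumour-bearing libraries went from -0.98 to -9.02, a value set by the small constant added before taking logs. In scratch-negative fibroblasts, at the ratio of that library's tumour cells, Ereg was 124 times, Hbegf 120 times and Areg 9.76 times the level that goes with Krt8. Neutrophil markers summed to 37935.8, 31215.5 and 3213.49 CPM in the fibroblasts of the 3 libraries, in the order control, scratch-negative, scratch-positive; their part in the ratios was not tested.

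**Figure D2:**
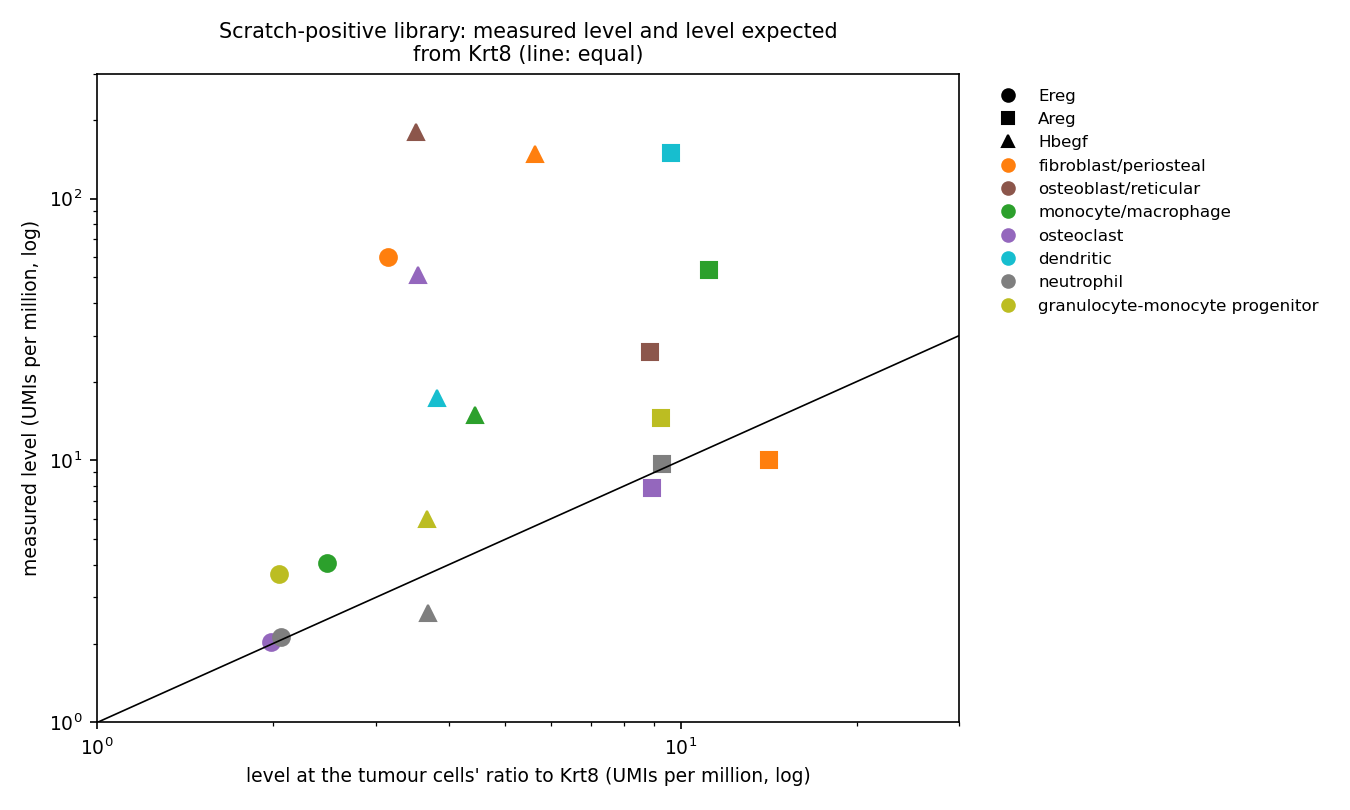
Scratch-positive library: measured level (vertical axis) against the level that would accompany the Krt8 of the class at the tumour cells' ratio (horizontal axis), both in CPM on log axes; shapes are ligands, colours are cell classes with at least 10 UMIs of the gene, and the line marks equality. Neutrophil points and osteoclast Areg lie near the line, and fibroblast Ereg and Hbegf, macrophage and dendritic Areg and osteoclast Hbegf lie above it.

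Osteoblast/reticular cells held Hbegf in all 3 libraries: 14 UMIs (17.9 CPM) in 78 control cells, 65 UMIs (34.4 CPM) in 165 scratch-negative cells and 76 UMIs (179 CPM) in 29 scratch-positive cells. The scratch-negative level was called higher than control, with a ratio of 1.93 [1.07 to 3.72], 1 of the 3 members tested, beside 6.91% of 10592 genes called higher and 12.4% lower. Neutrophil markers in the same cells summed to 22052.9, 108700 and 17402.3 CPM. The direction turned when each cell was given equal weight (log2 ratio -0.53), so this difference is not firm, and the 29 scratch-positive cells were too few for a comparison. Ereg had 3 UMIs in all in this class.

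Monocyte/macrophages held Areg in every library, the control included, and had more Hbegf and Ereg in the tumour-bearing ones. Areg had 123 UMIs (16.97 CPM) in the control, 365 (21.0 CPM) in the scratch-negative and 1178 (53.1 CPM) in the scratch-positive library. It was not called between control and scratch-negative (ratio 1.24 [1.01 to 1.53]) and was called higher in the scratch-positive than in the scratch-negative library (2.53 [2.25 to 2.85]). Hbegf had 6 UMIs (0.828 CPM), 173 UMIs (9.95 CPM) and 330 UMIs (14.9 CPM), 12.03-fold [5.42 to 33.2] higher in scratch-negative than in control cells. Ereg had 1, 62 and 90 UMIs (0.138, 3.57 and 4.06 CPM), with a ratio of 25.9 [4.47 to 1038] in the same comparison. Of 4 members tested against control, Hbegf and Ereg were higher and none lower, beside 9.39% and 8.6% of 11933 genes. A single scratch-negative cell held 34 of the 62 Ereg UMIs.

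Between the tumour-bearing libraries 2 of 6 members tested in macrophages were higher, Areg and Egfr, and none lower, where 28.7% of 12811 genes were called higher and 10.7% lower. The median log2 ratio of all genes was 0.24 there, so the count of members is close to the background; scaled by the median ratio of the genes with at least 50 UMIs in both libraries, the log2 ratio of Areg was 1.15 and the call was kept, and that of Hbegf was 0.39. Hbegf had a ratio of 1.495 [1.24 to 1.81], just under the 1.5-fold limit, and Ereg of 1.14 [0.814 to 1.60]. Areg was again carried by few cells: a single cell held 48, 99 and 137 UMIs at most in the 3 libraries, and 548 of 780 scratch-positive cells held none. At 5000 UMIs per cell Areg was found in 2.79% of 359 control, 4.83% of 600 scratch-negative and 12.3% of 745 scratch-positive cells, and Hbegf in 1, 18 and 53 of these cells (7.11% in the scratch-positive library). The share of positive cells was therefore highest in the scratch-positive library for both ligands.

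Markers of other cells also differed between these macrophages. Krt8 was at 1.67 CPM in the scratch-negative and 32.7 CPM in the scratch-positive library. At the tumour cells' ratio 11.2 CPM of Areg would come with the higher value, and the measured level was 4.76 times that. Scratch-positive Ereg and Hbegf were 1.64 and 3.36 times the levels that go with Krt8. In the scratch-negative library they were 17.9 and 26.2 times those levels. In the 186 and 266 macrophages without a UMI of Krt8 and Col1a1, Areg was at 60.1 and 72.0 CPM, a log2 ratio of 0.26, and the call was lost. The 682 scratch-negative macrophages held 29 Krt8 UMIs in all, so most cells were left out for Col1a1. Areg was at 21.0 CPM in the whole scratch-negative class. The kept cells are thus a different set, and the lost call does not show what Krt8 contributed. Hbegf in these cells was at 10.5 and 10.9 CPM. Areg was called higher against control in such cells (log2 ratio 1.48), and Ereg was called higher in the scratch-positive than in the scratch-negative library. With the UMIs that go with Krt8 subtracted from all macrophages, Ereg was instead called lower (log2 ratio -1.09), so its direction between the tumour-bearing libraries is not settled. Macrophages also carried much neutrophil RNA, and less of it in the scratch-positive library: in cluster 14, the larger of the 2 macrophage clusters, the neutrophil gene S100a8 was at 134601, 122676 and 45022.2 CPM. Its part in the ratios was not tested.

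Both macrophage clusters held Areg in every library, and Hbegf was seen mainly in cluster 14. Cluster 13 (288, 135 and 55 cells, led by F13a1, Ccr2 and Rnase6, genes of monocytes) had Areg at 35.2, 46.5 and 24.7 CPM and Hbegf at 0.332 CPM, 0 and 3.79 CPM. Cluster 14 (104, 547 and 725 cells, led by the complement genes C1qa, C1qb and C1qc, with Arg1) had Areg at 4.01, 18.8 and 53.8 CPM and Hbegf at 1.18, 10.8 and 15.2 CPM. The control macrophages were thus mostly cluster 13 and the scratch-positive ones mostly cluster 14. In cluster 14 alone Areg was called higher in both steps, with a log2 ratio of 2.22 between control and scratch-negative cells.

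**Figure D3:**
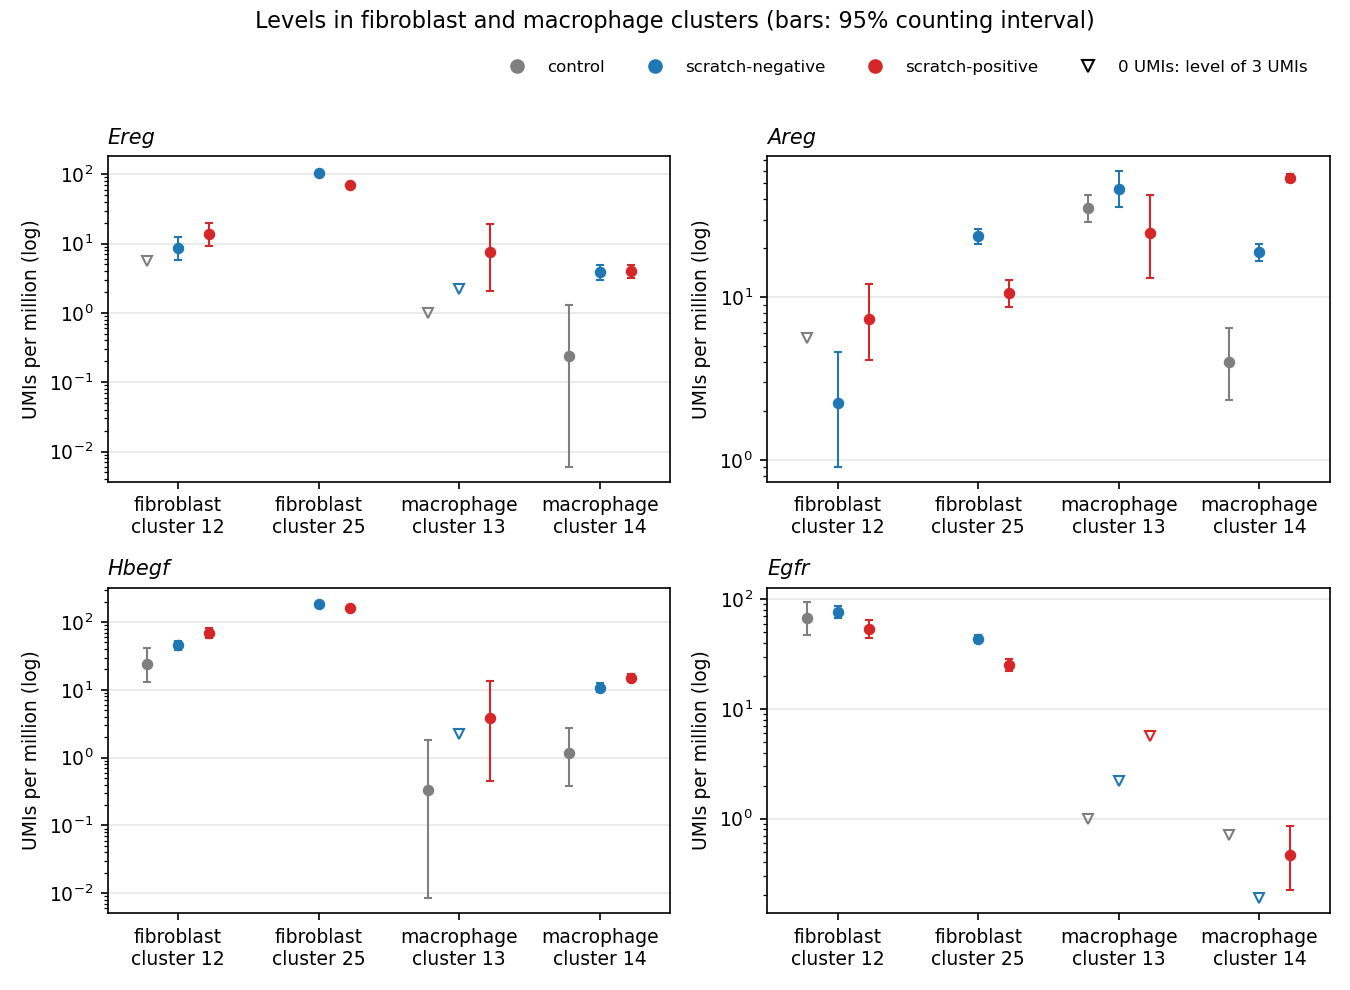
Levels of Ereg, Areg, Hbegf and Egfr (CPM, log axis) in the 2 fibroblast and 2 macrophage clusters, by library, with 95% counting intervals; open triangles mark the level of 3 UMIs where none was seen. Ereg is at 69.4 to 105 CPM in fibroblast cluster 25 and at 13.7 CPM or less in cluster 12, and Areg of macrophage cluster 14 goes from 4.01 to 53.8 CPM across the libraries.

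Osteoclasts held Hbegf in all 3 libraries and Areg in the scratch-positive one. Hbegf had 17 UMIs (21.8 CPM) in 22 control cells, 95 UMIs (27.0 CPM) in 81 scratch-negative cells and 1645 UMIs (51.3 CPM) in 868 scratch-positive cells. It was called higher in the scratch-positive than in the scratch-negative library, with a ratio of 1.90 [1.54 to 2.36]. Thinned cells with Hbegf numbered 12 of 80 scratch-negative and 141 of 861 scratch-positive cells, which are nearly equal shares. At 2000 UMIs per cell the shares were 2.47% of 81 and 8.90% of 865 cells. At full depth 435 of 868 scratch-positive cells held none. Areg had 0, 0 and 251 UMIs (7.82 CPM), at least 9.18-fold higher in the scratch-positive library, and no cell held more than 3 UMIs. With doublets removed by Scrublet's own threshold instead, Areg was still called higher but the log2 ratio was 1.52, well below that bound. At the tumour cells' ratio to Krt8, 8.93 CPM of Areg and 3.55 CPM of Hbegf would come with the Krt8 of these cells. The measured Areg is 0.876 times that value and the measured Hbegf 14.4 times. Of 5 members tested, 2 were higher (Areg and Hbegf) and 1 lower (Egfr), beside 7.96% and 9.07% of 12593 genes.

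In neutrophils the ligands were low, with Areg in the scratch-positive library the highest. Areg had 13, 69 and 155 UMIs (0.244, 1.20 and 9.70 CPM), Ereg 0, 24 and 34 UMIs and Hbegf 29, 59 and 42 UMIs in the 3 libraries. All 3 ligands were called higher in each step, 3 of 4 members tested against control (4.9% of 12359 genes higher and 7.08% lower) and 3 of 3 tested between the tumour-bearing libraries (9.79% of 12019 genes higher and 3.56% lower). Krt8 in the same cells was at 0, 1.48 and 27.3 CPM. The scratch-positive levels of Areg and Ereg were 1.04 and 1.03 times those that go with this Krt8 at the tumour cells' ratio, and Hbegf was 0.711 times it. In the scratch-negative library the 3 ligands were 2.37 (Areg), 2.36 (Ereg) and 3.05 (Hbegf) times that level. With that share subtracted, no ligand was called higher in the scratch-positive library; Hbegf was called lower, and Areg and Ereg were not called (log2 ratios -0.65 and -1.76). Against control, Areg and Ereg were still called higher and Hbegf was not.

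Granulocyte-monocyte progenitors (209, 335 and 166 cells), the marrow precursors of neutrophils and monocytes, gave a like picture. Ereg had 5 and 21 UMIs in the scratch-negative and scratch-positive libraries (ratio 11.2 [4.13 to 38.2]), Areg 6 and 83 UMIs (37.0 [16.3 to 103.8]) and Hbegf 2 and 34 UMIs (45.5 [11.7 to 391]). These 3 of 4 members tested were called higher and none lower, beside 5.45% and 5.89% of 10872 genes. Krt8 was at 1.05 and 27.1 CPM in these cells, and the scratch-positive Ereg, Areg and Hbegf were 1.79, 1.57 and 1.62 times the levels that go with it. These ratios were not recomputed under the alternative settings.

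**Figure D4:**
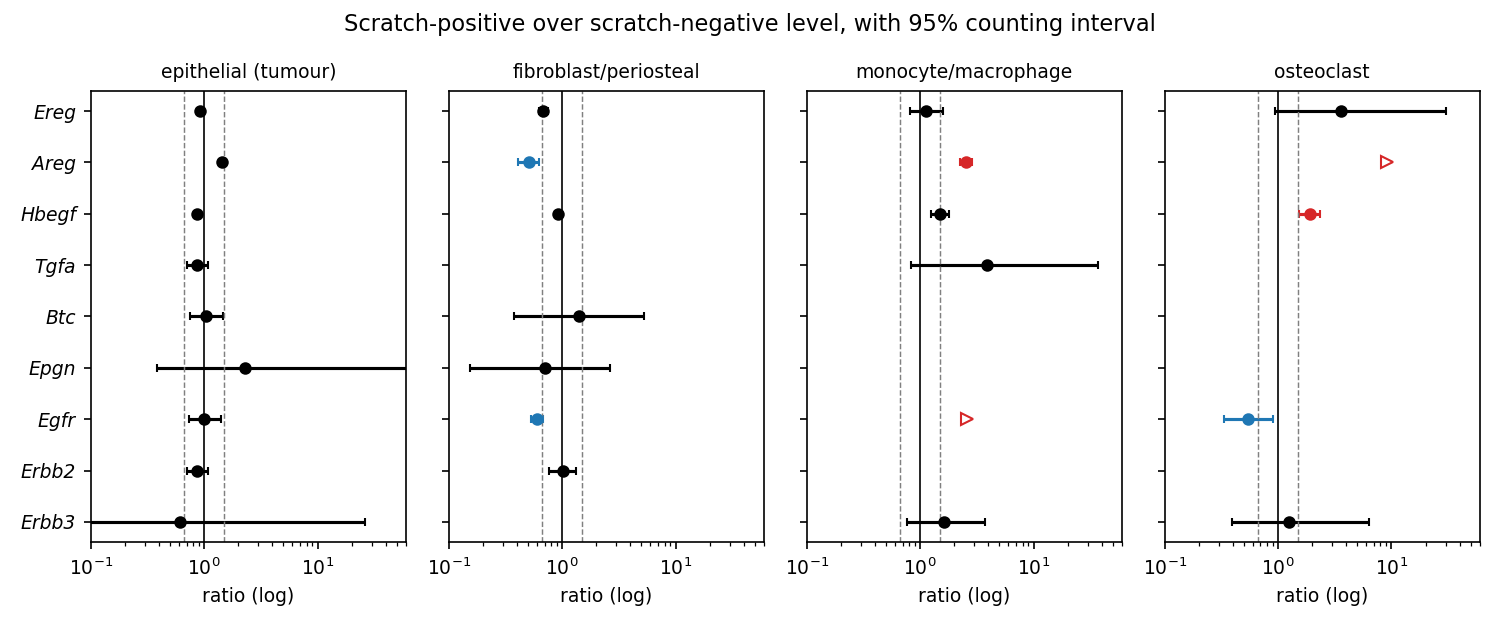
Ratio of the scratch-positive to the scratch-negative level (log axis) for each member with at least 10 UMIs in the pair, in 4 classes; bars are 95% counting intervals, red and blue mark members called higher and lower, open triangles are lower bounds, and dashed lines stand at 1.5-fold. No member is called in tumour cells, Areg and Egfr are lower in fibroblasts, and Areg is higher in macrophages and osteoclasts.

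The share of all UMIs of a gene in each class shows where the transcripts were. Tumour cells held 48.6% of the Ereg, 82.0% of the Areg and 46.9% of the Hbegf UMIs of the scratch-negative library, with 9.45% of all its UMIs. In the scratch-positive library they held 96.0%, 97.5% and 91.2%, with 72.2% of all UMIs. Fibroblasts held 47.8% of the Ereg and 44.5% of the Hbegf in the scratch-negative library, with 11.8% of all UMIs, and 2.80% and 3.65% in the scratch-positive library, with 3.54%. In the control library monocyte/macrophages held 66.8% and T cells 19.6% of the 184 Areg UMIs. How much tumour was cut away before sampling bears on these shares and is not known.

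Egfr, the receptor that binds all 6 ligands, was higher in stromal than in tumour or myeloid cells. In fibroblasts it had 36 UMIs (67.5 CPM) in the control, 848 UMIs (49.6 CPM) in the scratch-negative and 366 UMIs (30.03 CPM) in the scratch-positive library. In osteoblast/reticular cells it had 37, 68 and 8 UMIs (47.2, 36.0 and 18.9 CPM). In tumour cells it was at 3.13 CPM (43 UMIs) and 3.15 CPM (781 UMIs), a ratio of 1.01 [0.740 to 1.40]. The fibroblast level was thus above the tumour level in both tumour-bearing libraries, with intervals of 46.3 to 53.1 against 2.26 to 4.21 CPM in the scratch-negative and 27.0 to 33.3 against 2.93 to 3.38 CPM in the scratch-positive library. Below the stromal classes came osteoclasts (7.68, 5.97 and 3.21 CPM), whose scratch-positive interval overlaps that of the tumour cells, and then macrophages with 0, 0 and 10 UMIs.

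In fibroblasts Egfr was called lower in the scratch-positive than in the scratch-negative library, with a ratio of 0.605 [0.534 to 0.685], and was not called against control (0.735 [0.527 to 1.06]). Thinned cells with a UMI made up 33.3% of 42 control, 22.6% of 526 scratch-negative and 13.3% of 405 scratch-positive fibroblasts, the same order. Egfr was spread over many cells, with 29.8% and 32.5% of its UMIs in the top 10% of the scratch-negative and scratch-positive cells. By cluster, it was at 67.5, 76.3 and 53.9 CPM in cluster 12 and at 43.7 and 25.2 CPM in cluster 25, so that the cluster without Ereg in the control held more Egfr than the Ereg-rich one. Within cluster 12 alone the log2 ratio between the tumour-bearing libraries was -0.50 and no call was made.

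In osteoclasts Egfr had 6, 21 and 103 UMIs and was called lower in the scratch-positive library (0.538 [0.334 to 0.906]). The call was lost without the cell of most UMIs in each library and with a mitochondrial limit of 5%. In macrophages Egfr was called higher in the scratch-positive library, at least 2.61-fold, on 10 UMIs in 780 cells, with 0.403% of 745 thinned cells positive; this count is at the detection limit, and the call was lost with a minimum of 30 UMIs. In osteoblast/reticular cells the ratio of scratch-negative to control Egfr was 0.762 [0.504 to 1.17].

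Erbb2, the partner receptor, was low and even across tumour and stromal cells. It was at 7.20 CPM (99 UMIs) and 6.24 CPM (1548 UMIs) in tumour cells, a ratio of 0.866 [0.706 to 1.07]. In fibroblasts it was at 5.63, 7.37 and 7.47 CPM (3, 126 and 91 UMIs), with a ratio of 1.01 [0.765 to 1.34] between the tumour-bearing libraries. The intervals of tumour cells and fibroblasts overlap in the scratch-negative library. In macrophages it had 0, 0 and 6 UMIs. Erbb3 had 0 UMIs in fibroblasts of all 3 libraries and 1 and 11 UMIs in tumour cells; its largest counts were 34 UMIs (1.06 CPM) in scratch-positive osteoclasts and 23 UMIs (1.04 CPM) in scratch-positive macrophages. Neither gene was called in a class that was tested.

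**Figure D5:**
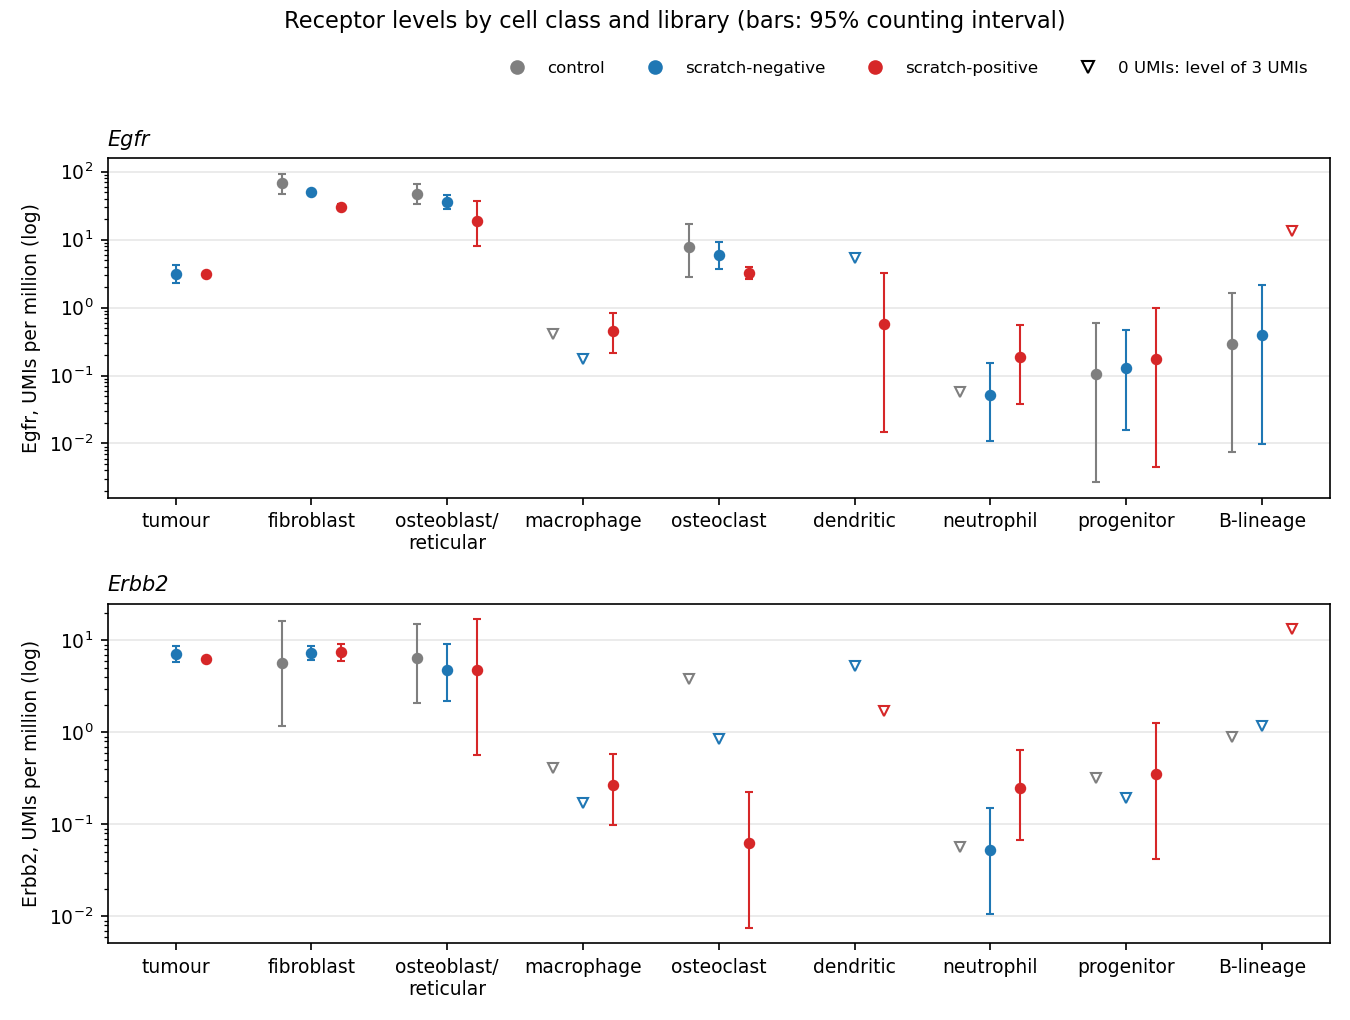
Levels of Egfr and Erbb2 (CPM of the class, log axis) by class and library, with 95% counting intervals; open triangles mark the level of 3 UMIs where none was seen. Egfr falls from 67.5 CPM in control fibroblasts to 30.03 CPM in scratch-positive ones and is at 3.13 and 3.15 CPM in tumour cells.

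Ligand and receptor were rarely seen in the same thinned cell. Areg and Egfr were found together in 2 of 188 scratch-negative and 22 of 3644 scratch-positive tumour cells. At full depth the same pair was found in 16.6% and 14.7% of tumour cells. Hbegf and Egfr were found together in 27 of 526 scratch-negative and 19 of 405 scratch-positive thinned fibroblasts (5.13% and 4.69%), and in 228 of 543 scratch-negative fibroblasts at full depth. The low Egfr counts limit what can be seen of this pair in tumour cells.

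The other genes of the pathway, 52 in all, comprised other ErbB ligands and receptors, shedding proteases, signal transmitters, receptor inhibitors and genes that answer to MAPK signalling. In tumour cells 5 of 49 tested were higher in the scratch-positive library and 4 lower (3.23% and 12.1% of all genes). The higher ones were feedback genes and receptor inhibitors: Spry1 (2.11 to 5.50 CPM, 2.61-fold), Errfi1, which encodes an inhibitor of the EGF receptor (96.8 to 191 CPM, 1.98-fold), the MAPK phosphatases Dusp4 (1.96-fold) and Dusp5 (1.93-fold) and Lrig3 (1.60-fold). The lower ones were the neuregulin gene Nrg1 (ratio 0.527), the proteases Adam9 (0.611) and Adam10 (0.661) and the kinase gene Map2k1 (0.667). No member moved with them past the call limit, and the median log2 ratio of all 14911 genes was 0.01.

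In fibroblasts 13 of 47 other pathway genes tested were higher in the scratch-negative than in the control library and 6 lower (8.3% and 16.3% of all genes). Nrg1, a ligand of ERBB3 and ERBB4, was at least 4.17-fold higher (0 UMIs in control, 23.5 CPM). Fosl1, a subunit of AP-1, had 2 control UMIs and a ratio of 14.5 [3.99 to 120], Lrig1 had 1 and a ratio of 10.1 [1.80 to 399], and Dusp6 had 1 and a ratio of 7.14 [1.27 to 283]. The lowest ratios were those of Ccnd1 (0.343), Gab1 (0.380) and Dusp5 (0.448). Between the tumour-bearing libraries 8 of 48 were higher and 8 lower in scratch-positive fibroblasts (11.2% and 16.1% of all genes), with Etv4 (11.8), Spry4 (3.15) and Ccnd1 (2.48) highest and Map2k1 (0.427), Fosl1 (0.476) and Rhbdf2 (0.534) lowest. The genes that answer to MAPK signalling went both ways there, 6 of 17 higher and 3 lower.

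In macrophages 15 of 44 were higher in the scratch-negative than in the control library and none lower (9.39% and 8.6% of all genes), led by Egr1 (6.32-fold), Dusp4 (4.17-fold [1.01 to 36.8]) and Ccnd1 (3.25-fold). Of the genes that answer to MAPK signalling 9 of 15 were higher, with a median log2 ratio of 0.88 against -0.06 over all genes. Between the tumour-bearing libraries 12 of 47 were higher (28.7% of all genes), with Etv4 (19.6 [3.21 to 805]), Spry1 (4.06) and Dusp4 (3.37) highest. The MAPK list then had 8 of 16 higher and a median of 0.79 against 0.24. In osteoclasts 7 of 47 were higher (7.96% of all genes), led by Egr1 (3.48), Dusp4 (3.08) and Spry1 (2.29), and 3 were lower (9.07%), Dusp5 (0.408), Errfi1 (0.464) and Fosl1 (0.598). Egf, the founding ligand, had 2 and 30 UMIs in tumour cells, and Erbb4 had 0 in both libraries.

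In osteoblast/reticular cells 4 of 44 were higher and 8 lower in the scratch-negative than in the control library (6.91% and 12.4% of all genes). Plaur (3.25) and Ccnd1 (2.17) were among the higher ones and Dusp5 (0.457), Myc and Spred2 among the lower ones. In neutrophils, where 4.9% of all genes were higher and 7.08% lower, 2 of 44 were higher against control, Ccnd1 (4.17) and Egr1 (2.69), and 2 lower, Nrg2 and Cblb. Between the tumour-bearing libraries 9 of 47 were higher in neutrophils (9.79% of all genes), in cells that also carried the Krt8 described above.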

How the data were processed

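Each library was made from live cells of mouse calvaria with the 10x Genomics 3′ kit and sequenced by the submitters. The deposited values are whole-number UMI counts per gene and barcode. The headers of the authors' count files name Cell Ranger 6.1.2 and the submitters' processing notes name build mm10. Any filters before deposit are not given in the sources used here. Barcodes with at least 500 genes and at most 10% mitochondrial UMIs were kept, and doublets were removed by highest Scrublet score at 0.8% per 1000 barcodes, since Scrublet's own threshold called 0 to 569 barcodes per library. Cells were clustered in scanpy 1.11.5 (2000 variable genes without the 9 genes and 52 pathway genes, 30 components, 15 neighbours, Leiden resolution 1, no batch correction) and named where at least 3 markers were found in at least 20% of cells at 1.5 times the level elsewhere; 3 clusters stayed unnamed. UMIs were summed per class and library. Levels have exact Poisson intervals, ratios of 2 libraries exact conditional binomial intervals and shares of cells Clopper-Pearson intervals, all at 95% and for counting error only; where a library had 0 UMIs the ratio was set against 3 UMIs in that library. Log2 ratios had a fraction of 1 UMI added to both libraries, so where no UMI was left their size is set by that constant. There is 1 library per group, so no p-value is given. The calls were tried on simulated data with Poisson counting error alone, the model that the intervals assume. That trial does not cover the uneven spread of UMIs over cells seen here. The text names all 9 genes, the 3 called pathway genes of highest and of lowest ratio per comparison and any counted in groups of 5 or fewer, and the 5 genes whose level follows each of 6 members best. The members and gene lists were chosen with earlier results of these data known. Alternatives covered the gene minimum, the mitochondrial limit, doublets, resolution, equal weight per cell, scaling, the fold limit, the UMI minimum and thinning to 2000 UMIs. A further one kept tumour and stromal cells without Ptprc and myeloid cells without Krt8 and Col1a1. Some genes that the naming rule picks are not reported here.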

Additional observations from a re-analysis of the deposited data

Results flagged for a closer look

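For 2 genes, calls between the scratch-positive and the scratch-negative library went in different directions in different cell classes; the difference between classes was not tested, since each class has 1 library per group.

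Areg was higher in the scratch-positive library in monocyte/macrophages (ratio 2.53), in osteoclasts (at least 9.18-fold) and in neutrophils (8.07) and lower in fibroblast/periosteal cells (0.506). With Scrublet's own threshold the osteoclast log2 ratio was 1.52, below that bound. The fibroblast value rests on 1 scratch-negative cell with 160 of 338 UMIs. In scratch-positive osteoclasts and neutrophils Areg stood at 0.876 and 1.04 times the level that accompanies Krt8 at the tumour cells' ratio. In scratch-positive fibroblasts it stood at 0.707 times that level, and in scratch-positive macrophages at 4.76 times it.

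Egfr was lower in the scratch-positive library in fibroblast/periosteal cells (0.605) and in osteoclasts (0.538) and higher in monocyte/macrophages (at least 2.61-fold), the last on 10 UMIs.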

How the results depend on the processing

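Of 19 calls of members in the 6 classes compared in the report, 18 were kept with a minimum of 200 genes, 16 with 1000 genes, 17 with a mitochondrial limit of 5%, 18 with Scrublet's own threshold, 19 at resolution 2.0, 18 with equal weight per cell and 19 with median scaling; without the cell of most UMIs in each library, chosen after seeing the data, 17 were kept. In tumour and stromal cells without Ptprc and myeloid cells without Krt8 and Col1a1, 13 of these calls could still be tested, and 11 were kept. That filter did not act on Krt8 in fibroblasts or on neutrophil markers in macrophages. With the Krt8 share subtracted, added after seeing the data, 13 of 17 were kept and 1 turned. In fibroblast cluster 12 alone 2 of 4 were kept and 1 turned. In fibroblast cluster 25 alone 2 of 2 were kept, and in macrophage cluster 14 alone 4 of 4. Calls with equal weight per cell used the fold limit and the UMI minimum alone, without the interval, which is a looser rule. No paired analysis was possible because each group had 1 library.

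Hbegf in osteoblast/reticular cells against control was the least firm call: the count of members called there went from 1 to 0 with a minimum of 200 or 1000 genes, a mitochondrial limit of 5%, Scrublet's own threshold and a fold limit of 2, and its log2 ratio turned to -0.53 with equal weight. In macrophages, scratch-positive against scratch-negative, the 2 members called became 1 with a minimum of 1000 genes, a minimum of 30 UMIs and in cells without Krt8 and Col1a1, where the gene called was Ereg, and 4 with Scrublet's own threshold. In tumour cells 2 members were called with equal weight, Areg and Epgn, and 1 in cells without Ptprc, in place of 0. The equal-weight calls did not use the interval, and Epgn had too few UMIs to set the libraries apart. In neutrophils the 3 members called against control became 1 in cells without Krt8 and Col1a1. A fold limit of 2 left 0 members of 2 in fibroblasts and 1 of 3 in osteoclasts, scratch-positive against scratch-negative. With the UMIs at the tumour cells' ratio to Krt8 subtracted, an alternative added after seeing the data, the 3 neutrophil members became 1 and the log2 ratios turned to -1.76 (Ereg), -0.65 (Areg) and -5.70 (Hbegf). No Hbegf was left in scratch-positive neutrophils, so its value is set by the small constant added before taking logs. The same subtraction left Hbegf uncalled in neutrophils against control and made Ereg called lower in macrophages (-1.09) and fibroblasts (-0.61), scratch-positive against scratch-negative. Fibroblast Areg stayed called lower under it, with a log2 ratio of -9.02 in place of -0.98. No Areg was left in the scratch-positive fibroblasts, so that size too is set by the constant. Ereg in fibroblasts was also called lower with a minimum of 1000 genes (-0.67) and median scaling (-0.65), and the osteoclast Areg ratio fell to 1.52 with Scrublet's own threshold. In fibroblast cluster 12 alone, likewise added, Areg turned to 1.63. The cause of these changes was not tested.

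For the other pathway genes, neutrophils against control had 4 called and 8 with a minimum of 1000 genes, 8 with Scrublet's own threshold, 14 with equal weight and 7 with median scaling. All equal-weight counts here come from the looser rule without the interval. Neutrophils between the tumour-bearing libraries had 10, and 16 with equal weight, 6 in cells without Krt8 and Col1a1, 6 with a minimum of 30 UMIs and 5 with the Krt8 share subtracted. Osteoblast/reticular cells had 12, and 7 with Scrublet's own threshold, 24 with equal weight, 7 without Ptprc and 6 at a fold limit of 2; osteoclasts had 10 and 16 with equal weight. A fold limit of 2 gave 1 of 9 in tumour cells, 5 of 16 in fibroblasts and 7 of 15 and 9 of 14 in macrophages, in the order of the 2 comparisons. Fibroblasts against control had 19, and 12 in cluster 12 alone. Depth limits Tgfa, Btc, Epgn and Erbb3 outside tumour cells, where a library and class mostly held fewer than 10 UMIs, and the control library, which held 48 fibroblasts and 22 osteoclasts.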

Other observations

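Areg was also found in lymphoid, dendritic and erythroid cells. The 228 scratch-negative erythroid cells held 151 Areg UMIs (13.6 CPM) and 48 Hbegf UMIs (4.33 CPM). These were 1.73 and 0.830 times the levels that accompany their Krt8. In the control library 102 T cells held 36 Areg UMIs (49.6 CPM [34.7 to 68.6]), and in the scratch-negative library 74 T cells held 5. Dendritic cells had 5 Areg UMIs in 35 scratch-negative cells and 258 UMIs (149 CPM) in 130 scratch-positive cells, 15.5 times the level that accompanies their Krt8; a single cell held 74 of the 258 and 96 of the 130 cells held none.

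A cluster that was left unnamed, led by the chemokine and cytokine genes Ccl3, Ccl4 and Il1a (423 scratch-negative and 476 scratch-positive cells and 11 control cells), held Hbegf at 18.9 and 31.7 CPM (62 and 89 UMIs), Areg at 2.44 and 22.8 CPM and Ereg at 2.13 and 6.78 CPM. Its cells were shallow, with a median of 3041 UMIs, and had all 12 neutrophil markers. Another unnamed cluster, of 39 scratch-positive cells with markers of both osteoclasts and fibroblasts, held Areg at 164 CPM (154 UMIs) and Hbegf at 139 CPM (130 UMIs), with Krt8 at 712 CPM. A cluster of 20 meningeal-like scratch-negative cells had the highest Egfr level of any class with at least 20 cells, 44 UMIs or 138.9 CPM [101 to 186], and 22 Hbegf UMIs. Control chondrocytes, 72 cells of low depth, held 19 Hbegf UMIs.

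Over 29 sums of a class in a library (at least 40 cells each) and 14530 genes with at least 100 UMIs, the genes whose log2 level followed Ereg most closely (Pearson's r) were 5730559C18Rik (0.955), Ankrd1 (0.952), Speer3, Bdkrb2 and Trpm6. Areg was followed by Itga3 (0.837), Hmga2 (0.814), Acsbg1, Krt8 (0.767) and 3110039M20Rik, and Hbegf by Emp1 (0.933), Dusp18, Rab34, Ift43 and Tnfrsf12a (0.922). Tgfa was followed by Serpinb1b (0.880), Car5b, Il12rb1, Sult2b1 and Qrfp, Egfr by Fbxl16 (0.970), Ndrg4 (0.964), Zfp532, Spin4 and Flrt2 (0.956), and Erbb3 by Gm42726 (0.795), B430219N15Rik, 1010001B22Rik, Etohd2 and Ranbp6. Between members r was 0.71 for Ereg and Hbegf, 0.66 for Ereg and Areg, 0.85 for Egfr and Erbb2 and -0.06 for Areg and Egfr. These sums share libraries and free RNA, and the values are a description only.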
